A study of Saccharomyces cerevisiae x Saccharomyces kudriavzevii and Saccharomyces cerevisiae with 12 samples.

Results

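The hexose transporter genes HXT1 to HXT7, the galactose permease gene GAL2 and the glucose sensor genes SNF3 and RGT2 were followed in Lalvin W27 and VIN7, commercial wine yeasts that are hybrids of Saccharomyces cerevisiae and S. kudriavzevii. These 10 genes were taken by their systematic names from the 6178 ORFs of the deposited table. The rule itself uses no measured value, but the 10 genes were chosen with earlier results of these data known. From these arrays the study had already reported sugar transport functions as down regulated against its reference strain. It did so for both hybrids at 12 °C and for Lalvin W27 alone at the higher temperature. Low values of the HXT genes are therefore not an independent finding. Of the 10 genes, 5 lie on chromosome IV (HXT3, YDR345C; HXT6, YDR343C; HXT7, YDR342C; SNF3, YDL194W; RGT2, YDL138W), 3 on chromosome VIII (HXT1, YHR094C; HXT4, YHR092C; HXT5, YHR096C), 1 on chromosome XII (GAL2, YLR081W) and 1 on chromosome XIII (HXT2, YMR011W). All 10 had a value on each of the 12 arrays.

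Cells came from fermentations of Tempranillo must at 12 or 28 °C and were taken as they entered stationary phase, with 50% of the reducing sugars used up. On each array the cDNA of a hybrid competed with that of Lalvin T73, a commercial S. cerevisiae strain, grown at the same temperature. There were 4 groups of 3 arrays (replicates A, B and C), W27 and VIN7 at 12 °C and W27 and VIN7 at 28 °C. The labels name the arrays biological replicates, whereas the methods give 2 independent fermentations, so that p-values may measure technical spread in part. Both hybrids carry a diploid S. cerevisiae and a haploid S. kudriavzevii genome. VIN7 is nearly complete in this respect, and W27 has chimeric chromosomes, among them chromosome IV with 5 of the genes. The probes were PCR-amplified ORFs of the S. cerevisiae strain S288c, so a ratio joins the alleles of both species. The study used heterologous hybridization conditions so that S. kudriavzevii sequences would bind, and how well their cDNA bound was not tested here. Close paralogs such as HXT6 and HXT7 share sequence and can hybridize to each other's probe.

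Values are log2 ratios of hybrid over T73. A value of -1 is a signal that is 2-fold lower in the hybrid. The direction is likely rather than stated. It rests on the dyes in the labels (Cy3 for the hybrid and Cy5 for T73 on every array, with no dye swap) and on the direction that the study gives for YMR210W and YIR007W. Replicate C of VIN7 at 28 °C stood apart. Its Pearson r across ORFs ranged from -0.70 to -0.38 against 4 arrays of the 6 from 12 °C, a range below -0.3 that was found for none of the other pairs. Its r with the other arrays of its own group was 0.06. Its direction could not be settled. Results that rest mainly on this array are given also without it, after turning its sign, or both ways. The median of an array lay between -0.14 and 0.30 and its SD between 0.60 and 1.59.

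Glucose and fructose enter S. cerevisiae by facilitated diffusion through the Hxt proteins, which differ in affinity and are expressed according to the sugar that is left. Rgt2 and Snf3 are related membrane proteins that sense high and low glucose, respectively, and do not serve as main carriers. Their signal releases HXT genes from repression, while a separate glucose repression pathway keeps the high-affinity carriers low as long as glucose is abundant. In a wine fermentation the set of carriers in use is known to shift as sugar is consumed.

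In W27, all 7 HXT genes gave a lower signal than T73 on all 6 arrays. At 12 °C the medians of the 3 arrays were at least 2-fold lower for 8 of the 10 genes (HXT1 to HXT7 and GAL2), which held for 11.2% of all ORFs, and at 28 °C for 7 (HXT1 to HXT7), against 6.08% of all ORFs. In VIN7 at 12 °C 5 genes were at least 2-fold lower (HXT2, HXT3, HXT4, HXT5 and HXT7; 11.9% of all ORFs) and SNF3 was at least 2-fold higher (13.9% of all ORFs). In VIN7 at 28 °C only HXT3 passed 2-fold, lower than T73, which 5.48% of all ORFs did. None of the 10 was 2-fold higher in that group (11.3% of all ORFs). There, 5 genes were lower and 1 was higher without replicate C (5.57% and 14.6% of all ORFs). After turning its sign, 8 were lower and 1 was higher (5.9% and 7.12% of all ORFs). These counts follow the rule of the study's methods and carry no test. The median of the 10 group means at 12 °C was -1.70 for W27 and -0.87 for VIN7. At 28 °C it was -1.77 for W27 and 0.44 for VIN7, or -1.03 without replicate C and -1.90 after turning its sign. Over all ORFs the medians of these 4 groups were -0.06, 0.04, 0.15 and 0.17.

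**Figure D1:**
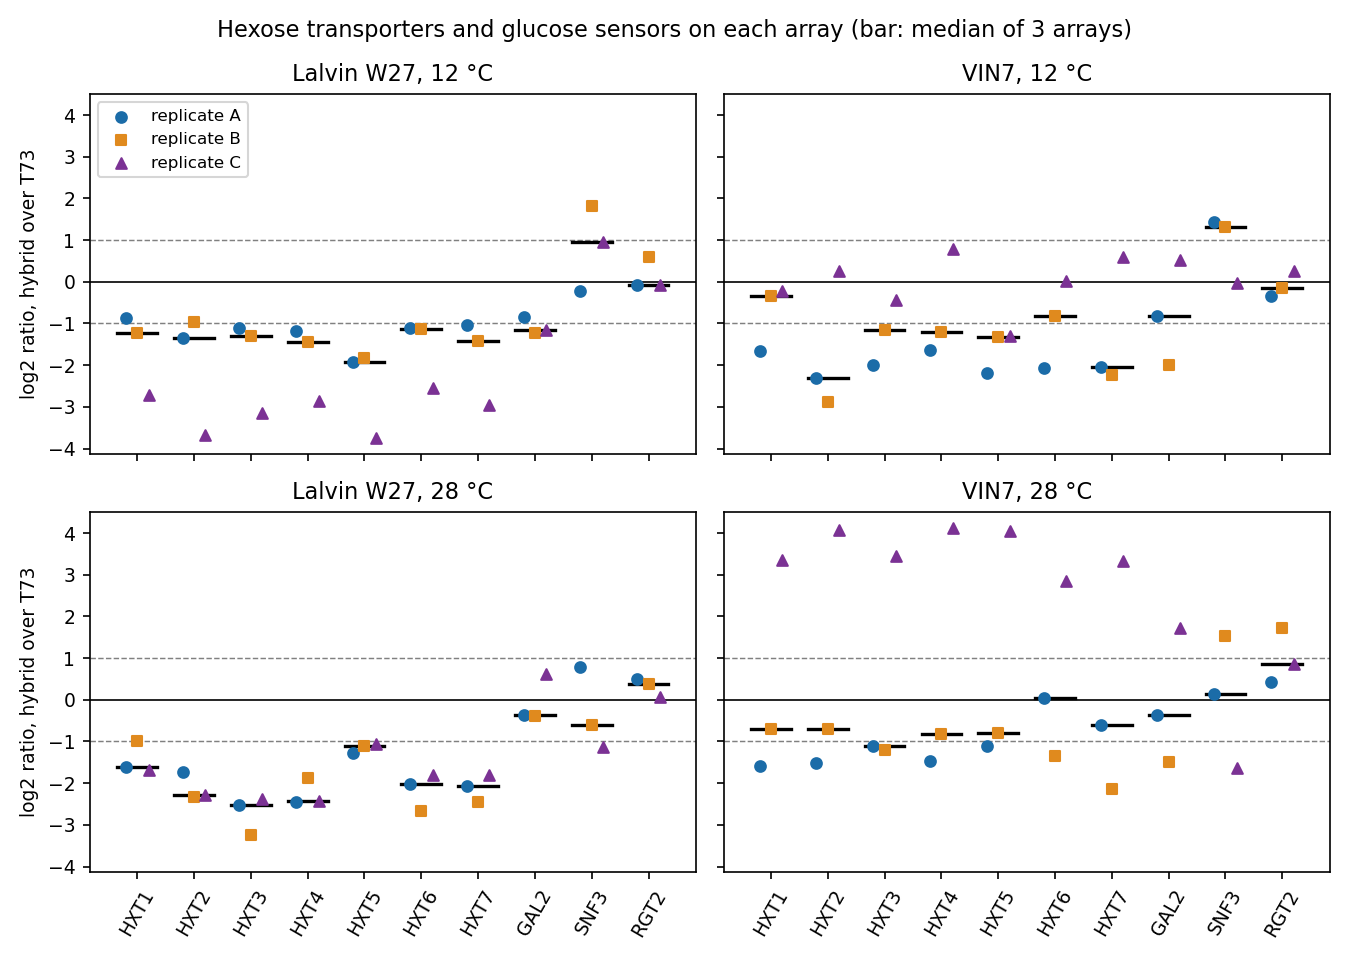
Log2 ratios of hybrid over T73 (vertical axis) for the 10 genes (horizontal axis) on each of the 12 arrays, with 1 panel per hybrid and temperature, symbols for replicates A, B and C and a bar at the median. HXT1 to HXT7 lie below 0 on all arrays of Lalvin W27, and on replicate C of VIN7 at 28 °C they lie between 2.84 and 4.11. The dashed lines mark 2-fold.

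HXT5, a carrier of moderate affinity that is expressed in slowly growing and stationary cells, was the member that lay furthest below T73 at 12 °C in the mean over both hybrids. Its log2 ratios were -1.91, -1.83 and -3.74 in W27 and -2.19, -1.32 and -1.29 in VIN7. All 6 arrays were thus below -1, which was the case for 21 of 5977 ORFs with a value on the 6 arrays (0.351%). The mean over both hybrids was -2.05 ± 0.53 (SE, n = 6), with an adjusted p = 0.0375 (limma, Benjamini-Hochberg over all ORFs). HXT5 was the only one of the 10 genes that passed in any comparison, and 10.7% of all ORFs passed in this one. Of the 10, 8 were lower here at an unadjusted p under 0.05 (HXT1 to HXT7 and GAL2), as were 15.5% of all ORFs. The call of HXT5 was lost without any 1 of 4 arrays at 12 °C, with adjusted p = 0.108 and 0.161 (limma) without replicates B and C of W27 and adjusted p = 0.128 and 0.118 (limma) without replicates A and B of VIN7. Both hybrids were set against T73, and a deviation of T73 at 12 °C that is common to the arrays would enter all of these values.

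At 28 °C HXT5 had -1.27, -1.12 and -1.07 in W27, the narrowest range of the 7 HXT genes in any group. VIN7 gave -1.11, -0.80 and 4.04. The means were -1.15 ± 0.11 (SD, n = 3) and 0.71 ± 2.88 (SD, n = 3), or for VIN7 -0.95 without replicate C and -1.98 after turning its sign. The difference between temperatures, 12 minus 28 °C, was -2.31 ± 1.06 in VIN7 (SE; adjusted p = 0.249, limma). It rested on the same array, with -0.65 without it (adjusted p = 0.723, limma) and 0.38 after turning its sign (adjusted p = 0.999, limma). In W27 the difference was -1.34 ± 1.07 (SE; adjusted p = 0.803, limma). T73 of the same temperature is part of each ratio, so such a difference contains that of T73 as well.

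HXT1 and HXT3 encode the low-affinity carriers, of which HXT1 is induced by high glucose and HXT3 by glucose at any level. HXT1 had log2 ratios of -0.86, -1.22 and -2.71 in W27 at 12 °C and of -1.62, -0.99 and -1.69 in W27 at 28 °C. In VIN7 it was -1.67, -0.33 and -0.21 at 12 °C and -1.60, -0.69 and 3.36 at 28 °C. HXT1 was thus below T73 on 11 of the 12 arrays, with the exception of replicate C of VIN7 at 28 °C. Its mean over both hybrids at 12 °C was -1.17 ± 0.51 (SE, n = 6; adjusted p = 0.133, limma).

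HXT3 gave the lowest mean of all 10 genes in any group, in W27 at 28 °C, where the arrays had -2.52, -3.25 and -2.38. The mean of -2.72 ± 0.47 (SD, n = 3) corresponded to a 95% interval from -4.30 to -1.14 in the fit and to an adjusted p = 0.313 (limma). In W27 at 12 °C HXT3 was -1.10, -1.30 and -3.15. VIN7 gave -1.99, -1.15 and -0.43 at 12 °C and -1.12, -1.21 and 3.44 at 28 °C. At 12 °C the values of both hybrids overlapped. At 28 °C all 3 arrays of W27 were below those of VIN7. This held without replicate C of VIN7 but not after turning its sign. The fit takes 1 spread per ORF from all 12 arrays, replicate C of VIN7 at 28 °C included. Without that array HXT3 passed in W27 at 28 °C (-2.72, adjusted p = 0.0409, limma), as did 0.113% of all ORFs.

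HXT2 and HXT4 are carriers induced by low glucose and repressed when glucose is high. HXT2 was -1.35, -0.96 and -3.67 in W27 at 12 °C, and -1.73, -2.33 and -2.30 at 28 °C. In VIN7 at 12 °C it was -2.31 and -2.87 on replicates A and B and 0.27 on replicate C, and at 28 °C it was -1.50, -0.70 and 4.07. HXT2 therefore showed the lowest median of VIN7 at 12 °C, a 4.95-fold lower signal, together with a change of sign among the arrays. HXT4 was -1.19, -1.44 and -2.87 in W27 at 12 °C and -2.46, -1.88 and -2.43 at 28 °C. In VIN7 it was -1.64, -1.20 and 0.78 at 12 °C and -1.47, -0.81 and 4.11 at 28 °C. The value of 4.11 was the highest of the 10 genes on any array.

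HXT6 and HXT7 encode nearly identical high-affinity carriers that are repressed by glucose and serve when little sugar is left. HXT6 was -1.10, -1.12 and -2.55 in W27 at 12 °C and -2.02, -2.66 and -1.80 at 28 °C. In VIN7 it was -2.08, -0.83 and 0.02 at 12 °C and 0.03, -1.35 and 2.84 at 28 °C. HXT7 was -1.04, -1.43 and -2.96 in W27 at 12 °C and -2.07, -2.45 and -1.81 at 28 °C. In VIN7 it was -2.04, -2.24 and 0.60 at 12 °C and -0.59, -2.15 and 3.33 at 28 °C. Both genes were more than 2-fold lower on every array of W27, and the values of VIN7 crossed 0 at both temperatures. The difference HXT6 minus HXT7 was 0.19 ± 0.56 (SD, n = 12 arrays), with the largest gap, 1.41, on replicate B of VIN7 at 12 °C. As these probes can bind the transcripts of both genes, the values are not independent measures of either.

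HXT3, HXT4, HXT5, HXT6 and HXT7 were at most -1 on each of the 6 arrays of W27, which only 13 of 5907 ORFs with a value on all of them reached (0.22%). HXT2 missed this with -0.96 on 1 array, and HXT1 with -0.86 and -0.99 on 2 arrays. Below 0 on all 6 arrays of W27 were 7.41% of all ORFs and all 7 HXT genes. None of the 10 genes had an adjusted p under 0.05 in W27 alone, at 12 °C (adjusted p from 0.313 to 0.333 for HXT1 to HXT7, limma) or at 28 °C (0.313 to 0.643). Of all ORFs, 0% passed at 12 °C and 0.0324% at 28 °C. At an unadjusted p under 0.05 all 7 were lower at 12 °C, as were 7.21% of all ORFs, and at 28 °C 5 were lower (HXT2, HXT3, HXT4, HXT6 and HXT7), as were 3.91%. The order of the 7 genes differed between temperatures in the means, with HXT5 lowest at 12 °C (-2.49) and highest at 28 °C (-1.15). Neighbours in either order differed by less than the SE of either mean (0.64 to 0.88).

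**Figure D2:**
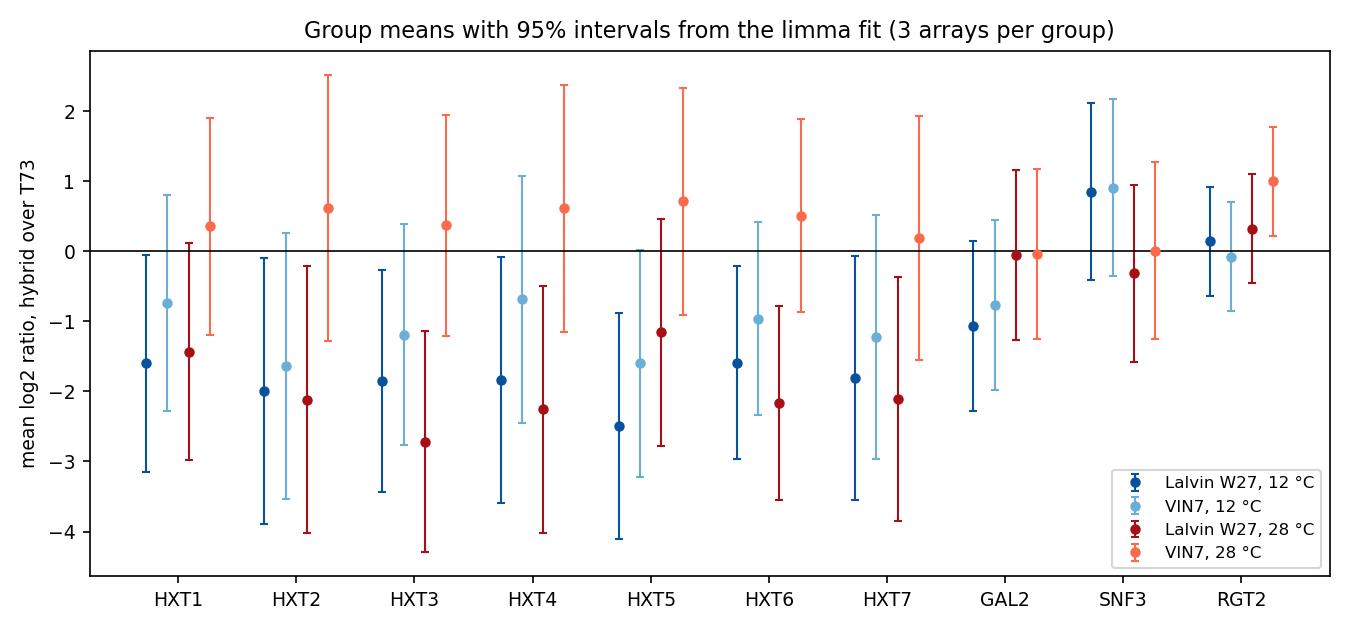
Mean log2 ratio of hybrid over T73 (vertical axis) of each gene (horizontal axis) in the 4 groups, with 95% intervals from the limma fit over 12 arrays (n = 3 per group). The means of HXT1 to HXT7 in Lalvin W27 lie between -2.72 and -1.15, and those of VIN7 at 28 °C between 0.19 and 0.71 with intervals that contain 0.

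For both hybrids at 12 °C the number of calls depended on which arrays gave the spread. Without replicate C of VIN7 at 28 °C, which is not part of this comparison, all 7 HXT genes passed with unchanged means between -2.05 and -1.17 (adjusted p from 0.00464 to 0.0266, limma), and 17.1% of all ORFs passed. They also passed when the fit held only the 6 arrays at 12 °C, together with 15.5% of all ORFs. At 28 °C the means of both hybrids for HXT1 to HXT7 were -1.17 to -0.22, and none of the 10 genes passed, with 0.179% of all ORFs past the threshold. HXT3 was lower at an unadjusted p under 0.05, as were 3.25%. Without replicate C of VIN7 they were -1.94 to -1.05, and HXT3 (-1.94, adjusted p = 0.0188, limma) and HXT4 (-1.70, adjusted p = 0.0462, limma) passed, as did 1.26% of all ORFs. After turning its sign, HXT3, HXT4, HXT6 and HXT7 passed, as did 1.05%.

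GAL2, the galactose permease, which also carries glucose, was -0.85, -1.22 and -1.15 in W27 at 12 °C. VIN7 at 12 °C gave -0.83, -2.004 and 0.51. At 28 °C GAL2 was -0.37, -0.40 and 0.61 in W27 and -0.36, -1.49 and 1.72 in VIN7. All arrays of W27 were thus lower at 12 than at 28 °C, and the arrays of VIN7 overlapped. The difference between temperatures in W27 was -1.02 ± 0.80 (SE; adjusted p = 0.799, limma). The 10 ORFs next to GAL2 in name order had a median of -0.49 in W27 at 12 °C, and after removal of the trend along name order GAL2 was -0.75 there. Over both hybrids at 12 °C its mean was -0.92 ± 0.40 (SE, n = 6; adjusted p = 0.131, limma).

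The sensor genes did not follow the carriers. SNF3, the low-glucose sensor, was -0.22, 1.81 and 0.96 in W27 and 1.44, 1.31 and -0.02 in VIN7 at 12 °C, above T73 on 4 of 6 arrays. The mean over both was 0.88 ± 0.42 (SE, n = 6; adjusted p = 0.163, limma). At 28 °C the values spread on both sides of 0, with 0.78, -0.60 and -1.12 in W27 and 0.13, 1.54 and -1.64 in VIN7. RGT2, the high-glucose sensor, stayed near T73 at 12 °C, with -0.08, 0.59 and -0.08 in W27 and -0.35, -0.15 and 0.27 in VIN7. At 28 °C it was 0.50, 0.39 and 0.07 in W27 and 0.43, 1.72 and 0.85 in VIN7, above 0 on all 6 arrays, as were 4.49% of all ORFs, which no longer holds if the sign of replicate C of VIN7 is turned. The mean over both hybrids was 0.66 ± 0.26 (SE, n = 6; adjusted p = 0.288, limma), higher at an unadjusted p under 0.05, as were 10.9% of all ORFs. It was 0.70 without that array (adjusted p = 0.235, limma) and 0.38 after turning its sign (adjusted p = 0.592, limma), and the unadjusted p was then 0.0331 and 0.250 (limma), respectively. In VIN7 alone the mean at this temperature was 1.00, with a 95% interval from 0.22 to 1.78 (adjusted p = 0.276, limma). It was above 0 at an unadjusted p under 0.05, as were 10.1% of all ORFs. The 10 neighbours of RGT2 in name order had a median of 1.01 in the same group. RGT2 was 0.12 there after removal of the trend along name order and 0.43 after turning the sign of replicate C.

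The place of a gene among all ORFs of its array does not depend on the centre or the spread of that array. On the 6 arrays of W27 the share of ORFs with a lower ratio than an HXT gene ranged from 0.10% (HXT5 on replicate C at 12 °C) to 16.1% (HXT2 on replicate B at 12 °C). On the 3 arrays of W27 at 28 °C HXT3 was always among the lowest, with 0.82%, 0.33% and 0.68% of ORFs below it. In VIN7 at 12 °C the HXT genes had 0.96% to 6.16% of ORFs below them on replicate A and 0.80% to 40.6% on replicate B. On replicate C they had 3.73% to 89.9%, with HXT5 lowest and HXT4 highest. In VIN7 at 28 °C the range was 1.15% to 50.6% on replicate A, 1.87% to 22.0% on replicate B and 96.6% to 99.6% on replicate C. The carriers were therefore among the highest ORFs of the array whose direction is not settled, and in the lower part on most other arrays.

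**Figure D3:**
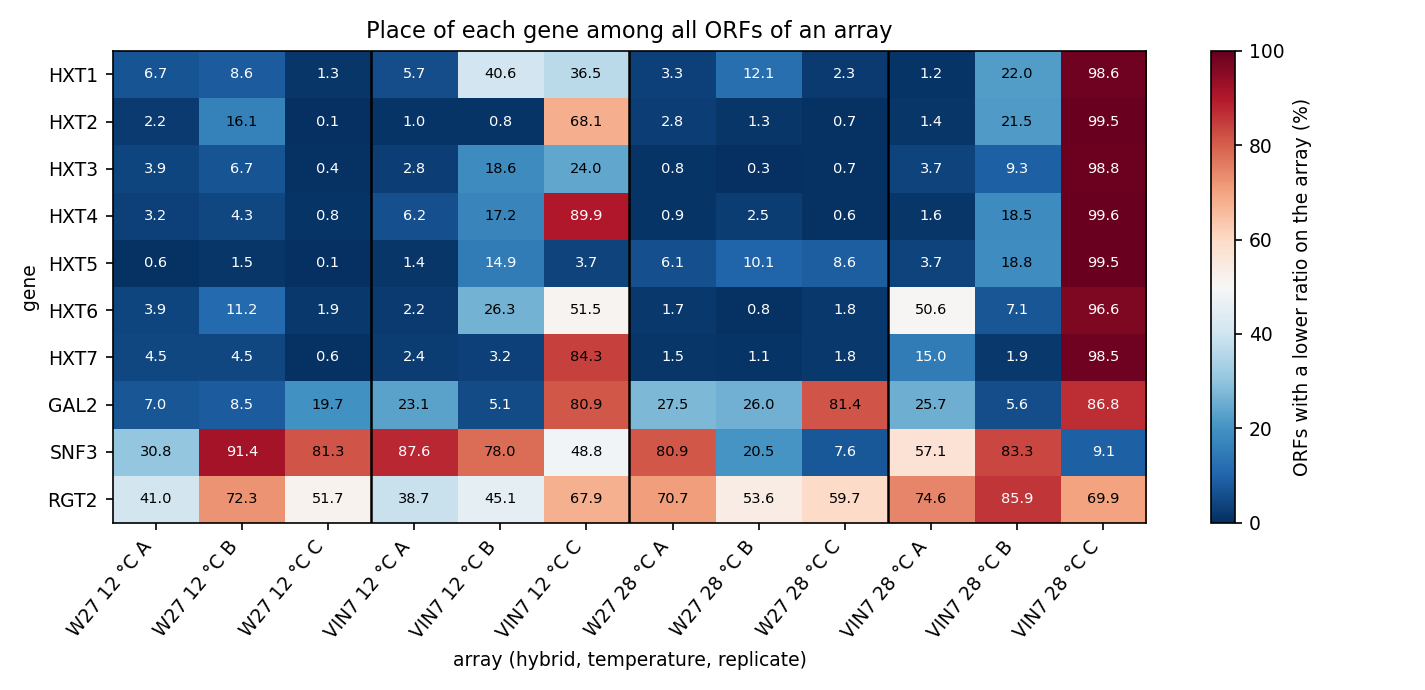
Share of ORFs in percent (colour and printed value) with a lower log2 ratio than each gene (rows) on each of the 12 arrays (columns). HXT1 to HXT7 lie at 16.1% or below on the arrays of Lalvin W27 and at 96.6% or above on replicate C of VIN7 at 28 °C, while SNF3 and RGT2 take places on both sides.

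Whether the hybrids differed from each other was tested as VIN7 minus W27, a comparison in which 0% of all ORFs passed at either temperature. At 12 °C it was between 0.36 and 1.15 for HXT1 to HXT7 (SE 0.91 to 1.25), and the adjusted p was 1.00 for each (limma). The interval of the largest difference, 1.15 for HXT4, went from -1.34 to 3.63, so that a lower as well as a higher signal in VIN7 is covered. At 28 °C the difference was 1.79 to 3.09, with an adjusted p of 0.538 to 0.563 (limma). HXT2, HXT3, HXT4 and HXT6 were higher in VIN7 at an unadjusted p under 0.05, as were 5.99% of all ORFs. The difference for HXT3 was 3.09 with an interval from 0.85 to 5.32. These values rested on replicate C of VIN7. Without it they were 0.20 to 1.55, and with its sign turned -0.83 to 0.79. The interaction of hybrid and temperature was -2.43 to -0.93 for HXT1 to HXT7 (adjusted p from 0.924 to 0.938, limma), and it was -0.89 to 0.69 without that array and -0.15 to 1.72 after turning its sign.

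In VIN7 alone none of the 10 genes passed against T73, at 12 °C, where 0.551% of all ORFs did, or at 28 °C, where 0.0162% did. Differences between temperatures did not pass for any of the 10 genes, nor for any other ORF (0%) in the fit of 4 group means. In W27, 12 minus 28 °C was between -1.34 (HXT5) and 0.86 (HXT3) for the HXT genes. In VIN7 it was between -2.31 (HXT5) and -1.10 (HXT1), with -0.65 to 0.45 without replicate C at 28 °C and 0.38 to 1.44 after turning the sign of that replicate. With the replicate letter as a block within VIN7, a fit added after seeing the data, 122 ORFs were higher and 69 lower at 12 °C, and none of the 10 genes passed (lowest adjusted p = 0.0849 for HXT2, limma). The pairing by letter was not seen after turning the sign of replicate C at 28 °C. HXT5 was lower at 12 °C at an unadjusted p under 0.05 in VIN7 (11.1% of all ORFs) and over both hybrids, with -1.83 ± 0.75 (SE; adjusted p = 0.201, limma; 12.2% of all ORFs). In VIN7 the unadjusted p of HXT5 was 0.341 without replicate C at 28 °C and 0.645 after turning its sign (limma). Over both hybrids HXT5 had -0.995 without this array (unadjusted p = 0.0410, limma) and -0.48 after turning its sign (unadjusted p = 0.413, limma), and the 7 HXT genes -0.995 to 0.44 and -0.48 to 0.93. The controls of the 2 temperatures were different T73 samples, which these differences cannot separate from the hybrids.

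HXT3, HXT6 and HXT7 are close to each other on the right arm of chromosome IV, and HXT1, HXT4 and HXT5 on that of chromosome VIII. In W27 at both temperatures and in VIN7 at 12 °C the ratios of neighbouring ORFs were closer to 0 in the group means. The 10 ORFs flanking each HXT gene in the order of systematic names had medians of group means between -0.21 and 0.39 in W27 at 12 °C, where the HXT means were -2.49 to -1.59. In W27 at 28 °C the neighbours had -0.05 to 0.48 and the HXT genes -2.72 to -1.15. In VIN7 at 12 °C the neighbours had -0.07 to 0.64 and the HXT genes -1.64 to -0.69. In VIN7 at 28 °C, with replicate C included, the neighbours had -0.39 to 0.37 and the HXT genes 0.19 to 0.71. There HXT7 (0.19) was closer to 0 than its neighbours (0.26). Without replicate C the HXT means were -1.37 (HXT7) to -0.66. After turning its sign they were -2.13 to -1.38, with -2.02 for HXT7. The neighbours were not taken again in these settings. On single arrays the medians of neighbours ranged from -1.30 to 1.36. The lowest, on replicate C of W27 at 12 °C, were -1.30 beside HXT3 and -0.90 beside HXT6 and HXT7, which themselves had -3.15, -2.55 and -2.96. On replicate A of VIN7 at 12 °C they were -0.53 beside HXT3 and -0.56 beside HXT6 and HXT7, which had -1.99, -2.08 and -2.04. Genes flanking 2 close members are in part the same ORFs.

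**Figure D4:**
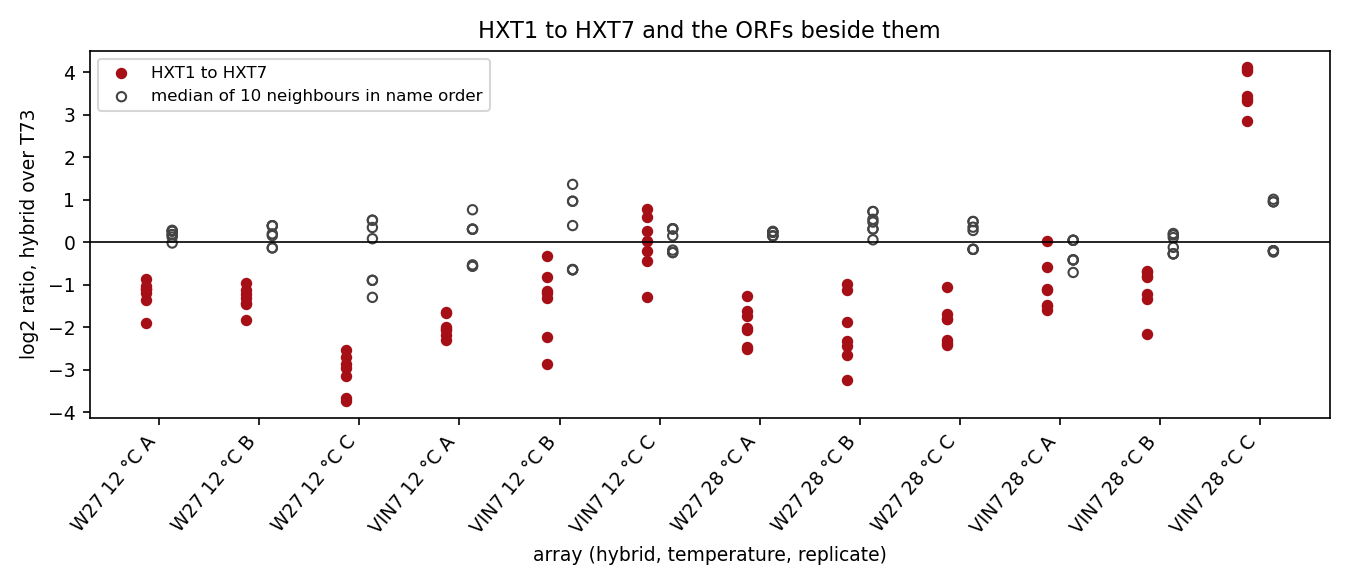
Log2 ratios of hybrid over T73 (vertical axis) of HXT1 to HXT7 (filled) and of the median of the 10 ORFs beside each of them in name order (open) on the 12 arrays (horizontal axis). On the arrays of Lalvin W27 all filled points lie at -0.86 or lower, and the carriers and their neighbours separate also on replicate C of VIN7 at 28 °C, in the opposite direction.

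The likeness of 2 profiles was taken as the root mean square difference of their log2 ratios over the 12 arrays, a description without a test that shared array effects can lower. Among 6134 ORFs with values on at least 10 arrays, the profile closest to HXT6 was HXT3 (0.53), and HXT7 was the third (0.57). The 7 HXT genes differed from each other by 0.53 to 0.98, whereas the median difference of HXT3 to all ORFs was 2.37. HXT4 had 5 other HXT genes among its 10 closest ORFs, HXT3 and HXT7 had 4 each, HXT2 had 3, HXT6 had 2, HXT5 had 1 and HXT1 had 0. From GAL2 the HXT genes differed by 1.24 to 1.64, and from SNF3 by 2.49 to 3.07. The closest ORFs outside the 10 genes were YOR289W for HXT1 (0.45), YBR145W for HXT2 (0.53), YMR083W for HXT3 (0.52), YMR272C for HXT4 (0.52), YML110C for HXT5 (0.56), YER062C for HXT6 (0.56) and YML133C for HXT7 (0.49). These ranks depended on the scale of the arrays. With each array recentred and scaled to the same spread, HXT7 was the closest ORF to HXT6 (0.59) and HXT3 the sixth (0.75), and the closest ORFs outside the 10 genes became YLR354C for HXT1 and YML132W for HXT6. HXT1 and HXT5 then had 0 other HXT genes among their 10 closest ORFs, HXT6 had 2, HXT2, HXT3 and HXT7 had 3 each and HXT4 had 4.

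**Figure D5:**
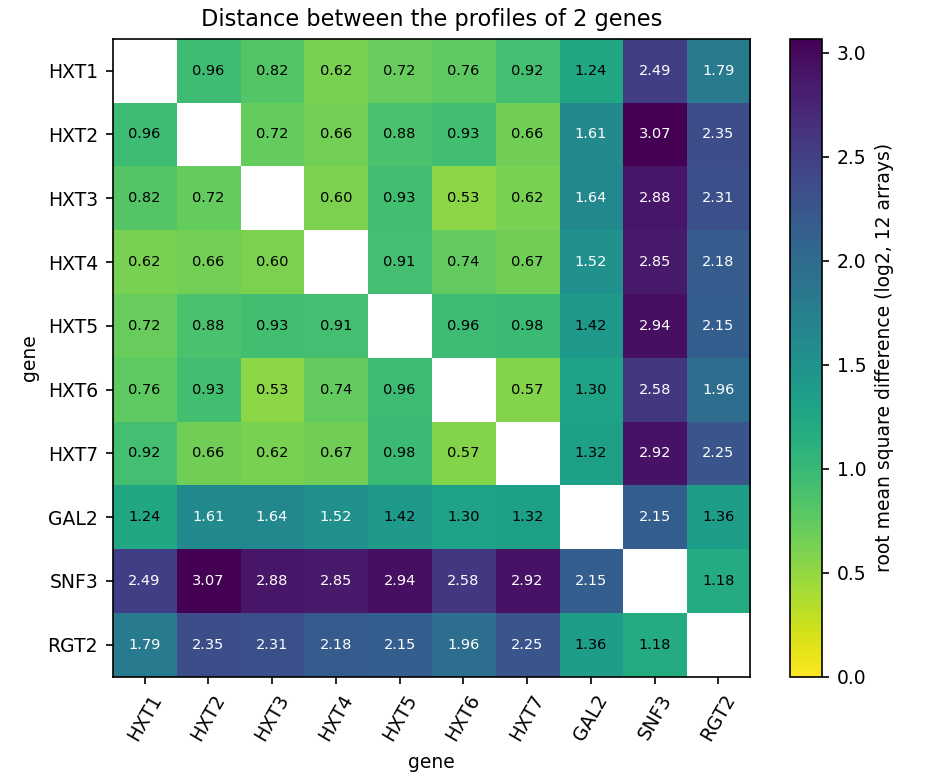
Root mean square difference of log2 ratios over 12 arrays (colour and printed value) for each pair of the 10 genes (rows and columns). The HXT genes differ from each other by 0.53 to 0.98 and from SNF3 by 2.49 to 3.07.

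The rest of the pathway was described with 5 further lists of 40 ORFs, which were written by hand as systematic names and were not checked against an annotation. Of 10 further members of the hexose transporter family, 6 were at least 2-fold lower in W27 and 6 in VIN7 at 12 °C, with medians of -1.25 and -0.86, where 11.2% and 11.9% of all ORFs were. At 28 °C these were 3 in W27 (median -0.58; 6.08% of all ORFs) and 1 in VIN7 (median 0.39; 5.48%). The count in VIN7 at 28 °C was 2 without replicate C (5.57% of all ORFs) and 4 after turning its sign (5.9%). None was 2-fold higher in any group, where 7.76% to 13.9% of all ORFs were. On replicate C of VIN7 at 28 °C 9 of these 10 were above 1, as were 26.5% of all ORFs on that array. Members of the family are similar in sequence, so these values are not independent of those of HXT1 to HXT7.

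The 3 hexose kinases phosphorylate the sugar after its entry. All 3 were below T73 on all arrays of W27 at 12 °C, as were 25.1% of all ORFs. Their group means were -1.32 to -1.18, and 1 of them was 2-fold lower in the median (11.2% of all ORFs). In VIN7 at 12 °C 1 of 3 was 2-fold lower (11.9%), and in W27 at 28 °C 2 of 3 were (6.08%). In VIN7 at 28 °C 2 of 3 were 2-fold higher (11.3%), which fell to 1 without replicate C (14.6%) and to 0 after turning its sign (7.12%). On replicate C of that group all 3 lay between 2.19 and 3.62. The glucose induction pathway links the sensors to the HXT promoters. Of 8 ORFs in it, none was 2-fold lower in any group (5.48% to 11.9% of all ORFs). At most 1 was higher, against 7.76% to 13.9% of all ORFs. In VIN7 at 28 °C this was 1 with and without replicate C (11.3% and 14.6% of all ORFs) and 0 after turning its sign (7.12%). Their medians were -0.01 and 0.12 at 12 °C and 0.33 and 0.52 at 28 °C in W27 and VIN7, respectively. Of 13 ORFs of the glucose repression pathway, 2 were 2-fold lower in each group except VIN7 at 28 °C. None was lower in that group (5.48% of all ORFs). In VIN7 at 12 °C 1 was 2-fold higher. The lower counts stand beside 11.2%, 11.9% and 6.08% of all ORFs in W27 and VIN7 at 12 °C and in W27 at 28 °C, and the higher one beside 13.9%. In VIN7 at 28 °C 1 was lower and 1 higher without replicate C (5.57% and 14.6% of all ORFs), and 1 lower and 0 higher after turning its sign (5.9% and 7.12%). From this list 1 ORF, YDR477W, passed at 12 °C over both hybrids (-1.31 ± 0.32, SE, n = 6; adjusted p = 0.0354, limma). In that comparison 10.7% of all ORFs passed. YDR477W was below T73 on 6 of 6 arrays, as were 11.8% of all ORFs. YDR477W was the only one of the 40 ORFs that passed in any comparison. The repression list was not split by whether an ORF acts for or against repression. Its counts and this call were therefore not read as stronger or weaker repression. Of 6 ORFs of the galactose regulon, 3 were 2-fold higher in W27 at 12 °C (median 0.78; 10.6% of all ORFs) and 1 in VIN7 (13.9%). At 28 °C these were 1 for W27 (7.76%) and 2 for VIN7 (11.3%). The latter was 0 without replicate C (14.6%), where 5 of the 6 had enough values, and 0 after turning its sign (7.12%). None was 2-fold lower in any group, where 5.48% to 11.9% of all ORFs were. GAL2, which belongs to the same regulon, had a mean of -1.07 ± 0.20 (SD, n = 3) in W27 at 12 °C.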

How the data were processed

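The authors scanned 12 competitive arrays in GenePix with subtraction of the global background and normalized them one by one in Acuity. They left out spots flagged as not found and treated print tip effects manually. What they deposited is 1 log2 ratio per ORF and array, likely of T73 over hybrid, and the sign was turned here. Array medians are near 0 but not at it, and no normalization was added. An array held 5815 to 6178 ORFs with a value. Precision is limited by the number of arrays, and signal over background is unknown because intensities were not used here. For W27 at 28 °C the source field in the labels reads 12 °C, and titles and descriptions (28 °C) were followed. No 2 arrays shared more than 0.113% of equal values.

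Each ORF with values on at least 2 arrays of each group compared entered a model of 4 group means over the 12 arrays in limma 3.58.1 (lmFit, then eBayes) under R 4.3.3, with Benjamini-Hochberg adjustment over all ORFs and 0.05 as threshold. The fit was tested on simulated data. The 2-fold rule used the median of at least 2 arrays. Named were the 10 genes, the closest profile outside them for each HXT gene, and ORFs of the other lists that passed. The 10 genes and the lists were chosen with earlier results of these data known. Deviations of same-letter VIN7 arrays at 12 and 28 °C correlated with r = 0.31, 0.22 and 0.57 for A, B and C, so these letters were taken as pairs in a further fit. After turning the array of unsettled direction these r were -0.21, 0.05 and -0.40. No other pair of groups had an r above 0.1 for all 3 letters. Alternatives were recentring, scaling, limits on extreme values (31 values lay below -15), removal of a running median over 51 ORFs in name order, array weights, a fit restricted to the arrays compared, a robust prior, a replicate block, other thresholds, the mean, the turned sign of 1 array and leaving out each array. Gene symbols were known for the 10 genes only, and no sequences were used. Counts, ranks and plots came from Python 3.11.15 with numpy 2.4.6, pandas 2.3.3 and matplotlib 3.10.9.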

Additional observations from a re-analysis of the deposited data

How the results depend on the processing

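The direction of HXT1 to HXT7 in Lalvin W27 was the same in every alternative, and the limits lie in VIN7, where 1 array decided the direction at 28 °C, and in the number of calls. Genes lower by the 2-fold rule in W27 numbered 8 at 12 °C and 7 at 28 °C, and 7 to 8 and 7 without 1 array. A 4-fold threshold left 0 at 12 °C, and 1 gene was higher there with recentring, with 1.5-fold and without some arrays (0 to 1). In VIN7 at 12 °C the count lower was 3 with scaling, 3 with the trend along name order removed, 2 at 4-fold and 2 to 8 without 1 array, and the count higher was 0 with scaling, at 4-fold and with the mean (0 to 1 without 1 array). In VIN7 at 28 °C the count lower was 3 with recentring, 2 with scaling, 0 with the trend removed, at 4-fold and with the mean, 6 at 1.5-fold, 8 with the sign of replicate C turned and 0 to 5 without 1 array. The count higher was 1 with the turned sign, at 1.5-fold and with the mean, and 1 to 6 without 1 array. The mean of HXT3 in that group, 0.37, reversed to -0.20 with scaling, -1.92 with the turned sign and -1.16 without replicate C, and it was -1.16 to 1.16 over all arrays left out in turn. The median of the 10 genes in W27 at 28 °C was -2.35 with scaling. Without 1 array the medians were -2.06 to -1.13 and -1.78 to -1.67 in W27 and -1.44 to -0.57 and -1.03 to 1.22 in VIN7, at 12 and 28 °C.

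Calls by limma numbered 2 (HXT3 and HXT5) in W27 at 12 °C with array weights, where 9.36% of all ORFs passed. In W27 at 28 °C they numbered 2 (HXT3 and HXT6) with array weights (1.54% of all ORFs) and 0 to 1 without 1 array. Over both hybrids at 12 °C there were 3 with scaling (11.7% of all ORFs), 5 with the turned sign (11.1%) and 7 with only the arrays compared (15.5%). Array weights gave 9 there (32.3%), of which 8 were lower and SNF3 was higher (1.08). Leaving out 1 array gave 0 to 7. There were 0 without replicate B or C of W27 or A or B of VIN7 and 3 without C of VIN7 at 12 °C (16.8%). There were 2 without B (12.8%) and 7 without C (17.1%) of VIN7 at 28 °C. Without 1 array HXT5 ranged from -2.21 to -1.74 (adjusted p up to 0.161, limma). At 28 °C the calls over both hybrids numbered 4 with the turned sign (1.05% of all ORFs) and 0 to 2 without 1 array. Replicate letters were taken as pairs only within VIN7, with the array of unsettled direction as deposited. After turning its sign, deviations of same-letter arrays had r of -0.21, 0.05 and -0.40, so the pairing is unsettled too. The block, added after seeing the data, gave 0 calls among the 10 genes between temperatures, as without it. The same fit called 8 of them lower over both hybrids at 12 °C (HXT1 to HXT7 and GAL2), where 23.5% of all ORFs passed. With the replicate block over all arrays HXT5 at 12 °C had -2.05 (adjusted p = 0.0371, limma), the only call as in the fit of 4 group means, and no other call changed.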
